A study of Homo sapiens with 22 samples.

Results

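The genes described here form the machinery of the G1 phase of the cell cycle: the D-type cyclins CCND2 and CCND3, their kinase partners CDK4 and CDK6, the E-type cyclins CCNE1 and CCNE2 with CDK2, and the CDK inhibitors CDKN1B (p27), CDKN1C (p57) and CDKN2C (p18). They were chosen by symbol because proliferating erythroid precursors leave the cell cycle as they mature, and all 10 symbols were found among the 59087 gene names of both raw count tables. RNA-Seq was performed in HUDEP-2, an immortalized human erythroid progenitor line whose medium holds doxycycline, which drives its immortalizing viral oncogenes, both in expansion and in maturation. Cells were taken in expansion medium (D0) and on the sixth day in maturation medium (D6). At each day 2 WT libraries were set beside 3 of H2A.X KO cells, and in a separate BAZ1B experiment 3 WT beside 3 BAZ1B KO libraries, which gives 22 libraries. H2A.X is a histone H2A variant whose phosphorylation on a serine marks damaged DNA. BAZ1B (WSTF) is a kinase that phosphorylates it on a nearby tyrosine. The KO cells are subclones obtained by limiting dilution after deletion with paired CRISPR/Cas9 guides, which flank the coding region of H2A.X or the first exon of BAZ1B. The KO count columns are numbered KO1 to KO3, as the study numbers its subclones, whereas the labels call them replicates and do not say whether any replicates were separate cultures. The p values thus measure only the spread between these libraries, which may be technical.

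In G1, D-type cyclins bind CDK4 or CDK6, and E-type cyclins bind CDK2. Both kinds of complex phosphorylate the pocket proteins RB1, RBL1 and RBL2, which releases E2F transcription factors and opens S phase. CDKN2C belongs to the INK4 inhibitors, which bind CDK4 and CDK6 alone, whereas CDKN1B and CDKN1C belong to the CIP/KIP inhibitors, which act on cyclin complexes of several CDKs. In erythroid cells the last divisions are tied to hemoglobin accumulation and to the decrease of cell size, cyclin D3 is known to set the number of those divisions, and CDKN1B and CDKN2C accumulate as cells stop dividing.

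Levels are given as CPM, a gene's reads per 1000000 reads of the library after TMM scaling, so a level is a share of the sequenced mRNA and not an amount per cell. Libraries held 11910141 to 21013004 counted reads in the H2A.X experiment and 33199408 to 41273244 in the BAZ1B experiment. Biological coefficients of variation were 0.239 and 0.0865, so a difference of given size was less easily called in the H2A.X experiment. Reads on H2AFX, the H2A.X gene, averaged 101 ± 15.9 CPM in WT (SD, n = 2) and 35.7 ± 14.5 in KO (SD, n = 3) at D0 (log2 fold change of -1.5, adjusted p = 0.0304 by edgeR), and 118 ± 25.9 and 40.9 ± 21.5 at D6. Reads on BAZ1B, of which only the start of the gene was deleted, averaged 261 ± 2.80 CPM in WT and 197 ± 23.9 in KO at D0 (SD, n = 3 each; log2 fold change of -0.40, adjusted p = 0.00415). Erythroid markers were high in every library. Summed over 10 such genes, among them globins and ALAS2, they stood at 6303 to 7050 CPM in BAZ1B WT at D0 and 38093 to 43791 at D6. In H2A.X WT they stood at 23464 to 31918 CPM at D0, higher than in any BAZ1B experiment library of that day, and at 36698 to 62039 at D6. Markers of lymphocytes summed to at most 0.520 CPM in any library, with CD3E at or near 0, and those of neutrophils and monocytes to at most 6.15. Markers of megakaryocytes summed to at most 75.7 CPM, with PF4 and PPBP at or near 0. Those of mast cells and eosinophils reached 620 CPM in the D0 libraries of the BAZ1B experiment and 12.2 to 40.8 CPM at D6.

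The first comparison asked how the G1 genes moved between D0 and D6, and BAZ1B WT, with 3 deeply sequenced libraries at each day, gives the most precise account. All 4 cyclins and all 3 inhibitors rose, as did CDK2. CDK4 fell slightly and CDK6 was not called. Thus 8 of 10 genes were called higher and 1 lower at an adjusted p below 0.05, where 33.5% of the 13879 genes tested were called higher and 35.4% lower. The median log2 fold change of the 10 genes was 0.90, against -0.015 over all genes tested. In bulk samples fewer cells in a given phase and less RNA per cell cannot be told apart.

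Among the cyclins, CCNE1 (chromosome 19, 29811991 to 29824312, plus strand, GRCh38) changed most. It stood at 39.5, 37.4 and 41.0 CPM in the 3 BAZ1B WT libraries at D0 and at 196, 193 and 195 at D6. The days were far apart and the replicates close together, a 4.96-fold difference (log2 fold change of 2.31, SE 0.0529, adjusted p = 5.91e-12). CCND3 (chromosome 6, 41934934 to 42050357, minus strand), the D-type cyclin of late erythroid divisions, stood at 139, 142 and 133 CPM at D0 and 571, 549.7 and 648 at D6. It was 4.27-fold higher at D6 (log2 fold change of 2.10, SE 0.0898, adjusted p = 5.89e-10). CCNE2, the second E-type cyclin, rose from 42.1, 43.0 and 42.3 CPM to 88.0, 89.1 and 86.6, which is 2.07-fold (log2 fold change of 1.05, SE 0.0447, adjusted p = 5.57e-10). The gain of CCND2 (chromosome 12, 4269771 to 4305353, plus strand) was the smallest of the cyclins. Its libraries held 79.5, 77.1 and 73.3 CPM at D0 and 96.1, 108 and 102 at D6 (log2 fold change of 0.41, SE 0.150, adjusted p = 0.0267). The groups did not overlap, but the call was lost when any 1 of 4 libraries was left out (replicate 2 or 3 of either day), with an adjusted p of up to 0.0784. CCNE2 overlaps INTS8 and NDUFAF6 on the opposite strand, and INTS8 was the more abundant gene, at a median of 262 CPM. The sample labels name a kit that does not mark strand and the study's methods a stranded one, so it is not settled whether reads of such pairs were kept apart.

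Of the 3 kinases, CDK2 was called higher and CDK4 lower at D6. CDK4 held 353, 354 and 359.8 CPM at D0 and 336, 324 and 328 at D6, a decrease to 0.926 of the D0 level (log2 fold change of -0.11, SE 0.0358, adjusted p = 0.0141). The call was lost without 1 of 3 libraries (D0 replicate 3, D6 replicate 2 or D6 replicate 3), with an adjusted p of up to 0.0833. CDK6 stood at 180.3, 188 and 175 CPM at D0 and 195, 216 and 173 at D6, so that its days overlapped, and it was not called. CDK2, the partner of E-type cyclins, moved from 65.0, 65.2 and 67.8 CPM to 89.1, 90.1 and 91.9, a small but tightly measured rise (log2 fold change of 0.45, SE 0.0352, adjusted p = 1.15e-07).

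All 3 inhibitors were higher at D6. CDKN1B rose from 47.6, 45.8 and 48.9 CPM to 87.3, 85.9 and 88.4 (log2 fold change of 0.88, SE 0.0633, adjusted p = 5.57e-08). CDKN2C rose from 53.1, 56.0 and 56.8 CPM to 109.5, 99.5 and 104 (log2 fold change of 0.92, SE 0.0495, adjusted p = 3.56e-09). Both thus came close to a doubling, at 1.84-fold and 1.89-fold. CDKN1C was scarce at either day, at 1.78, 0.848 and 1.13 CPM at D0 and 3.30, 2.50 and 4.88 at D6, and its days did not overlap (log2 fold change of 1.51, SE 0.303, adjusted p = 0.000622).

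**Figure D1:**
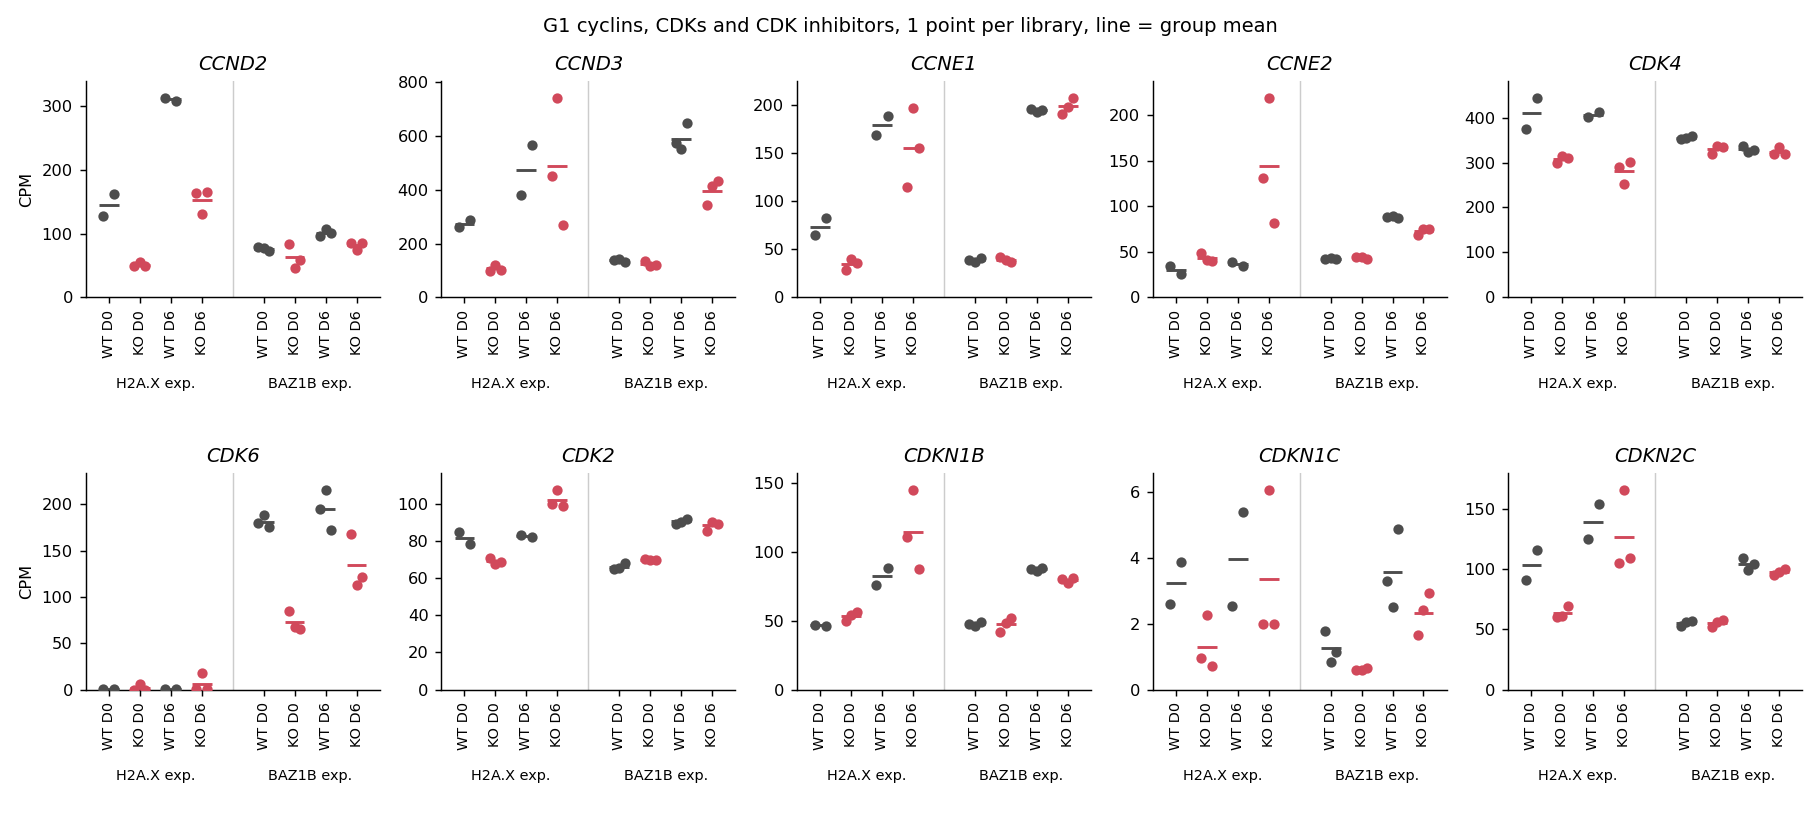
CPM (linear axes from 0) of the 10 G1 genes in each of the 22 libraries, 1 point per library, grouped by experiment, genotype (grey WT, red KO) and day, with a line at each group mean. CCNE1 stood at 37.4 to 41.0 CPM in BAZ1B WT at D0 and at 193 to 196 at D6, CDK4 stood at 353 to 360 and at 324 to 336, and CDK6 was near 0 in the H2A.X experiment.

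In BAZ1B KO cells 9 of the 10 genes were called higher at D6 than at D0 and none lower, where 33.2% of genes were called higher and 34.5% lower. CDK4 was the exception, at 319, 338 and 335 CPM at D0 and 319, 335 and 319.5 at D6, with overlap. CCNE1 reached 191, 198 and 208 CPM, 5.05-fold its D0 level. CDK6, not called in WT, rose in KO from 85.3, 67.2 and 65.8 CPM to 168, 113 and 122 (log2 fold change of 0.88, SE 0.138, adjusted p = 8.27e-05), and its days did not overlap. CCND2 was called as well (log2 fold change of 0.37, SE 0.152, adjusted p = 0.0445), although its days overlapped and the call was lost in 10 of the 12 fits that left out 1 library, with an adjusted p of up to 0.158, and under DESeq2 (adjusted p = 0.0674).

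In H2A.X KO cells 7 of the 10 genes were called higher and none lower (14.8% of the 13236 genes tested were called higher, 16.1% lower). CCND3 rose from 99.0, 121 and 103 CPM to 451, 741 and 270.1 in the 3 libraries of each day (log2 fold change of 2.18, SE 0.318, adjusted p = 0.000972). CCNE1 rose from 28.6, 40.5 and 36.3 to 115, 197 and 156 CPM (log2 fold change of 2.15, SE 0.217, adjusted p = 0.000172). The rise of CCNE2, from 48.7, 40.6 and 39.8 to 131, 219 and 81.5 CPM, was 3.34-fold, with a spread of the D6 libraries wider than in any other group (log2 fold change of 1.74, SE 0.302, adjusted p = 0.00225). CCND2 rose 2.98-fold, CDKN1B 2.14-fold, CDKN2C 1.996-fold and CDK2 1.48-fold, with adjusted p values from 0.000129 to 0.00417. The CDK2 call rested on both libraries of KO replicate 2 (adjusted p = 0.0639 without them). CDKN1C was not called (log2 fold change of 1.35, SE 0.581, adjusted p = 0.105), but it was with the replicate number as a block, which pairs the D0 and D6 libraries with the same number (log2 fold change 1.32, adjusted p = 0.00665). At D6 KO replicate 3 held the least CCND3, CCNE2 and CDKN1B and KO replicate 2 the most. Replicate 3 at D6 is also the 1 KO library of that experiment whose column name lacks the word Redo, and the part of that mark in these values was not tested.

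In H2A.X WT only CCND2 and CCNE1 were called, both higher at D6, where 0.839% of genes were called higher and 1.16% lower. CCND2 stood at 127 and 162 CPM at D0 and 313 and 308 at D6 (log2 fold change of 1.10, SE 0.177, adjusted p = 0.0263). CCNE1 stood at 65.0 and 82.4 CPM at D0 and at 169 and 189 at D6 (log2 fold change of 1.28, SE 0.258, adjusted p = 0.0397). Neither call held when any 1 of the 4 WT libraries was left out, and in all CCND2 lost its call in 6 and CCNE1 in 8 of 12 fits that left out 1 library or both of a KO replicate, with adjusted p values of up to 0.306. CDKN1B did not overlap between the days, at 46.8 and 46.2 CPM at D0 and 76.1 and 88.4 at D6, and was not called (log2 fold change of 0.82, SE 0.219, adjusted p = 0.0827), whereas it was called by DESeq2 (adjusted p = 0.0201), with the replicate block (0.0431) and with the length and GC correction (0.0448). These WT libraries already held 262 and 286 CPM of CCND3 and 65.0 and 82.4 of CCNE1 at D0, beside summed erythroid markers of 23464 to 31918 CPM. BAZ1B WT libraries of the same day held 139, 142 and 133 CPM of CCND3 and 39.5, 37.4 and 41.0 of CCNE1, with markers of 6303 to 7050 CPM. The experiments were deposited as separate count tables and normalized separately, so no test was made between them. The part of the markers in the difference was not tested, nor was any other cause.

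**Figure D2:**
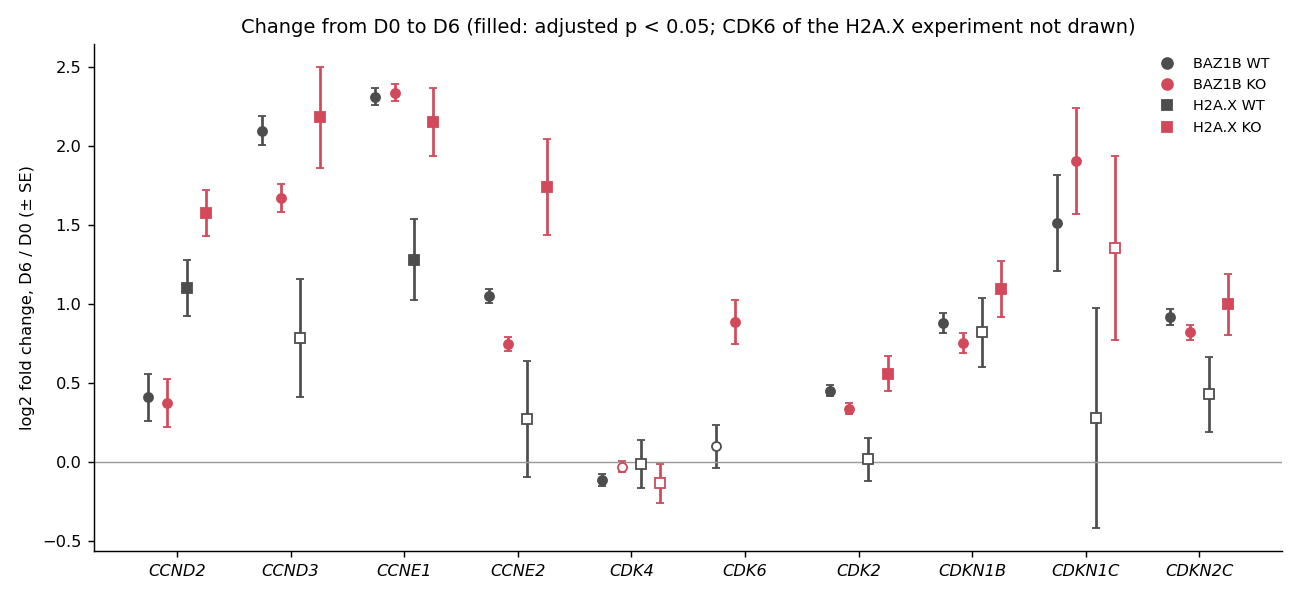
Log2 fold change of D6 over D0 for each G1 gene in BAZ1B WT, BAZ1B KO, H2A.X WT and H2A.X KO (circles BAZ1B experiment, squares H2A.X experiment, grey WT, red KO), with the SE as bars; filled symbols have an adjusted p below 0.05. CCNE1 lies at 1.28 to 2.34 in the 4 comparisons, CDK4 lies close to 0, and CDK6 is drawn for the BAZ1B experiment only.

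Levels were also set in order per kb of exon, which allows genes to be compared with each other. In BAZ1B WT at D0, CDK4 led with 115 ± 1.22 CPM per kb (SD, n = 3), followed by CCND3 with 24.0 ± 0.776. CDKN2C held 18.3 ± 0.652 CPM per kb, CDK2 16.98 ± 0.404, CCNE1 15.96 ± 0.735 and CDK6 14.8 ± 0.537. CCNE2 with 9.66 ± 0.109 and CCND2 with 9.60 ± 0.390 came next, then CDKN1B with 5.12 ± 0.169 and CDKN1C with 0.504 ± 0.192. Libraries of neighbours in this order overlapped for CCNE1 and CDK6 and for CCNE2 and CCND2, and for no other pair. At D6, CDK4 at 106 ± 1.99 and CCND3 at 102 ± 8.99 CPM per kb overlapped, and CCNE1 came after them with 79.2 ± 0.611. CDK4 exceeded CDK6 by its level per kb at both days. These lengths pool the exons of all annotated isoforms, and an unused long isoform lowers a gene's level on this scale.

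Promoter windows from RefSeq, from 250 bases before to 50 bases after a transcript start (GRCh38.p14), were at hand for CCND3, CCNE1, CDK4, CDK6, CDKN1B and CDKN2C, 11 windows in all. The 250 bases before the start are shown for CCNE1 and CDKN1B, which rose at D6, for CDK4, which did not, and for the first start of CDK6, whose transcript was near absent from most H2A.X experiment libraries. Each is written 5′ to 3′ on the strand of the gene, and capitals mark the SP/KLF box GGGCGG on either strand.
CCNE1, plus strand, chr19:29811741-29811990: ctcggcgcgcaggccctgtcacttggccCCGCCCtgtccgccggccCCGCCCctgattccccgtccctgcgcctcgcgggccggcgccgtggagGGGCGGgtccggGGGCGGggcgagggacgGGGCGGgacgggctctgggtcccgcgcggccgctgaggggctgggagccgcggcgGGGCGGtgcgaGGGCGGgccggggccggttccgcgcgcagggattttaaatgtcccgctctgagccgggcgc
CDKN1B, plus strand, chr12:12717118-12717367: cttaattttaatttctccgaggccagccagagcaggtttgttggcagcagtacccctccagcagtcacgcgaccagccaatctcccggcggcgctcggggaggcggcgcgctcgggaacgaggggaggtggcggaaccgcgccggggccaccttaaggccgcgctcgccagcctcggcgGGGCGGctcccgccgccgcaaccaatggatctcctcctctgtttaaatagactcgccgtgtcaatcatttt
CDK4, minus strand, chr12:57752311-57752560: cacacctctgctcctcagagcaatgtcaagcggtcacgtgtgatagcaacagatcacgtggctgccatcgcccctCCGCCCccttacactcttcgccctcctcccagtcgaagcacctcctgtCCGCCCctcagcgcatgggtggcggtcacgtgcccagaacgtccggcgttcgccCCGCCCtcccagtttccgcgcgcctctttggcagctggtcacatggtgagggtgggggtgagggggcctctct
CDK6, minus strand, chr7:92836574-92836823: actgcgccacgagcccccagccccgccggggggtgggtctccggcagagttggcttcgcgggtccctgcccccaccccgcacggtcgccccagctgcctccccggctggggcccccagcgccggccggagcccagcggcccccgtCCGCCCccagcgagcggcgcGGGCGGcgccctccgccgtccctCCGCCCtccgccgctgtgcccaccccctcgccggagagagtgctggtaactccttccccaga

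The box GGGCGG can be read by Sp1 and some Krüppel-like factors. In these 4 windows it was present 7 times for CCNE1, 3 times for CDK4, 3 times for CDK6 and 1 time for CDKN1B. It was found in 8 of the 11 windows, and in 45% of the 35116 windows of all genes. The E2F spelling TTTGGCG, read on both strands, was in none of the 11 windows, nor was its variant TTTCGCG, nor the variant written TTTCCCG, while 7.21% of all windows held at least 1 of these. The GATA spelling AGATAA was likewise in 0 of the 11, as was the spelling TGATAA, against 16.3% of all windows with either. The letters of the box thus did not separate the genes that rose at D6 from CDK4, and the absence of the other spellings says only that these letters are not in these windows.

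The G1 genes were then set beside 47 other genes of the G1/S network, in 4 lists made from textbook roles. In BAZ1B WT, 34 of these 47 were called higher and 7 lower at D6, where 33.5% of all genes tested were called higher and 35.4% lower. Of 13 pocket proteins and E2F/DP factors, the direct targets of the G1 kinases and their partners, 10 rose and 3 fell (median log2 fold change 0.50). E2F2 changed most, from 31.4 ± 1.31 to 139 ± 17.6 CPM (SD, n = 3 each; log2 fold change of 2.14, SE 0.141, adjusted p = 2.43e-08). E2F4, a factor that mostly represses together with the pocket proteins, rose from 196 ± 3.98 to 394 ± 11.3 CPM (log2 fold change of 1.01, SE 0.0390, adjusted p = 2.77e-10), and E2F8, a repressor that acts without a DP partner, rose as well (log2 fold change 0.97, adjusted p = 8.91e-10). The 3 pocket proteins rose by less, with log2 fold changes of 0.50 for RB1, 0.37 for RBL1 and 0.57 for RBL2 (adjusted p at most 3.26e-06). E2F1 rose too (log2 fold change of 0.30, SE 0.0719, adjusted p = 0.00237). Those that fell were E2F3, from 131 ± 3.01 to 68.1 ± 0.990 CPM (log2 fold change of -0.94, SE 0.0518, adjusted p = 4.42e-09), E2F5 (log2 fold change -1.60) and E2F6 (-0.56).

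Among the remaining G1 cyclin and inhibitors, CCND1 fell (log2 fold change of -0.61, SE 0.149, adjusted p = 0.00274) and CDKN1A (p21) and CDKN2D (p19) rose (log2 fold change of 2.34, SE 0.389, adjusted p = 0.000138 and log2 fold change of 0.37, SE 0.119, adjusted p = 0.0146). CDKN1A was scarce, at 0.164 to 0.298 CPM at D0 and 0.772 to 1.37 at D6, and CDKN2A, at 268 to 277 CPM at D0 and 234 to 239 at D6, and CDKN2B were not called. Of 11 regulators of CDK activity and stability 7 rose and 3 fell. SKP2, the F-box protein that targets CDKN1B for degradation, fell (log2 fold change of -0.90, SE 0.0632, adjusted p = 4.26e-08), as did CCNH and CUL1, while MNAT1, FBXW7, the F-box protein for cyclin E, and CKS1B rose most (1.01, 0.92 and 0.49 on the log2 scale). Of 18 S and M phase genes 15 rose and none fell (median 0.54). The largest rises were those of CDK1, from 104 ± 0.973 to 219 ± 1.90 CPM (log2 fold change of 1.07, SE 0.0359, adjusted p = 9.83e-11), CCNB2 (1.07) and MCM5 (0.82). MKI67, the usual marker of cycling cells, was at 747 ± 28.0 CPM at D0 and 918 ± 23.6 at D6. Which cells carried these transcripts was not measured.

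**Figure D3:**
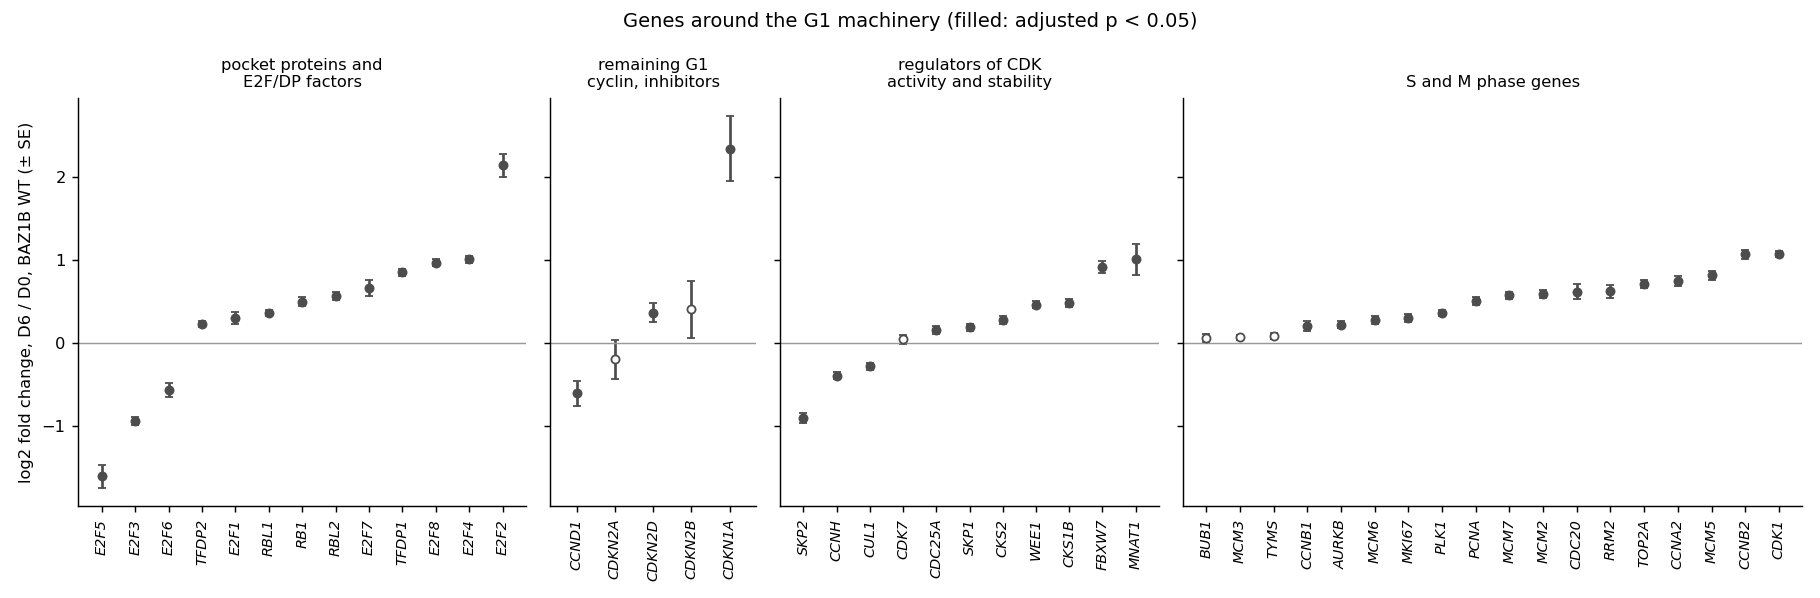
Log2 fold change of D6 over D0 in BAZ1B WT (bars SE, n = 3 libraries per day) for the 47 genes of 4 lists around the G1 machinery; filled symbols have an adjusted p below 0.05. E2F2 lies at 2.14 and CDKN1A at 2.34, E2F3, E2F5 and E2F6 lie below 0, and all 18 S and M phase genes lie above 0.

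In BAZ1B KO, 31 of the network genes were called higher and 7 lower at D6, where 33.2% of all genes tested were called higher and 34.5% lower. H2A.X KO had 19 higher and 5 lower, against 14.8% and 16.1% of all genes. Among them were E2F2 (log2 fold change of 2.47, SE 0.245, adjusted p = 0.000163), E2F4 (log2 fold change of 0.82, SE 0.134, adjusted p = 0.00168), CDKN2D (log2 fold change of 1.68, SE 0.416, adjusted p = 0.0128) and, lower, E2F3 (log2 fold change of -0.93, SE 0.170, adjusted p = 0.00298). For H2A.X WT edgeR called none of the 47, with 11 of them at an unadjusted p below 0.05, and DESeq2 called 2, both lower. Few genes of any kind were called there by edgeR, 0.839% of all genes higher and 1.16% lower.

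The second comparison asked what loss of BAZ1B did to these genes. At D0 CDK6 was the 1 G1 gene called. It stood at 85.3, 67.2 and 65.8 CPM in the 3 KO libraries, against 180.3, 188 and 175 in WT. Every KO library lay below every WT library, and the level was 0.401 of that in WT (log2 fold change of -1.32, SE 0.138, adjusted p = 0.000118). The call held in all 12 fits that left out 1 library, with log2 fold changes of -1.45 to -1.25. Over all genes tested 1.25% of genes were called higher and 2.64% lower. CDK4 and CDK2 did not overlap either, but differed little (log2 fold change of -0.11, SE 0.0358, adjusted p = 0.144 and log2 fold change of 0.081, SE 0.0353, adjusted p = 0.291). CDKN1C was lower in each KO library, at 0.603, 0.601 and 0.655 CPM against 1.78, 0.848 and 1.13, but was not called (log2 fold change of -1.01, SE 0.344, adjusted p = 0.149). CCND2 spread widely among the KO libraries, at 84.0, 46.7 and 59.3 CPM, and was called without the first of them (log2 fold change -0.54, adjusted p = 0.00304). CCND3, CCNE1, CCNE2, CDKN1B and CDKN2C were not called at D0, and their KO and WT libraries overlapped. The summed erythroid markers stood at 7416 to 7903 CPM in KO and 6303 to 7050 in WT, with 1 of the 10 called higher and 2 lower. Those of mast cells and eosinophils stood at 453 to 620 and 467 to 508. The part of these markers in the CDK6 difference was not tested.

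At D6, 3 genes were lower in BAZ1B KO, where 6.87% of genes were called higher and 5.97% lower. CCND3 stood at 345, 415 and 431 CPM in KO and 571, 549.7 and 648 in WT (log2 fold change of -0.57, SE 0.0862, adjusted p = 0.000901). CDK6 stood at 168, 113 and 122 CPM in KO and 195, 216 and 173 in WT, with KO replicate 1 just under the lowest WT library (log2 fold change of -0.53, SE 0.135, adjusted p = 0.0206). CCNE2 stood at 67.9, 75.3 and 74.8 CPM in KO and 88.0, 89.1 and 86.6 in WT, a small decrease (log2 fold change of -0.27, SE 0.0439, adjusted p = 0.00129). None of the 3 overlapped between KO and WT, but of the 10 genes 5 were lower without overlap. CCND2 was among them, at 86.0, 74.0 and 85.7 CPM in KO and 96.1, 108 and 102 in WT. It was not called (log2 fold change of -0.31, SE 0.150, adjusted p = 0.207), except in 1 of 12 fits that left out 1 library (adjusted p = 0.0172). The share of all genes without overlap was not counted. The CDK6 call at D6 was lost without any 1 of 4 libraries (WT replicate 1 or 2, KO replicate 2 or 3), with an adjusted p of up to 0.0839, whereas the CCND3 and CCNE2 calls held in all 12 such fits. CCNE1, the gene with the largest day effect, was at 191, 198 and 208 CPM in KO and 196, 193 and 195 in WT, with overlap. Both CIP/KIP inhibitors and CDKN2C were not called, and CDKN1B, at 80.3, 77.5 and 81.1 CPM in KO and 87.3, 85.9 and 88.4 in WT, did not overlap between the genotypes. The summed erythroid markers were 32188 to 37976 CPM in these KO libraries and 38093 to 43791 in WT, with 3 of the 10 markers called lower and none higher, and their part in the differences was not tested.

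Beyond the 10 genes, CDKN1A was lower in BAZ1B KO at D6, at 0.111 to 0.369 CPM against 0.772 to 1.37 in WT (log2 fold change of -2.19, SE 0.395, adjusted p = 0.00294), and so was CDKN2D, at 3.24 to 3.57 against 4.40 to 5.12 CPM (log2 fold change of -0.47, SE 0.120, adjusted p = 0.0220). RBL1, at the edge of the threshold, was higher (log2 fold change of 0.12, SE 0.0377, adjusted p = 0.0492), and RB1, RBL2 and E2F1 to E2F4 were not called. In all, 4 of the 47 network genes were higher and 5 lower at D6, against 6.87% and 5.97% of all genes. The 4 became 1 under upper-quartile scaling, without the filter, with the replicate block, with the libraries of D6 alone and without any 1 of 7 libraries. At D0 none of the 47 network genes was called by edgeR, with 3 at an unadjusted p below 0.05, and DESeq2 called 1. Without KO replicate 1 at D0, 4 were higher and 2 lower. The share of all genes called under each of these alternatives is not given here. The changes in these counts are therefore not read as particular to the network genes.

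Whether the KO effect differed between the days was tested directly. CCNE2 differed in BAZ1B, with a change of -0.30 in the log2 fold change of KO over WT from D0 to D6 (SE 0.0629, adjusted p = 0.0273) and 1.58% of genes were called higher and 0.893% lower. The call was lost without any 1 of the 6 WT libraries, with an adjusted p of up to 0.0824. For CDK6 the difference was 0.78 (0.192 SE, adjusted p = 0.0536) and for CCND3 -0.43 (0.123 SE, adjusted p = 0.0990). Neither was called by edgeR and both were by DESeq2 (adjusted p = 0.0231 and 0.0193).

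CDK6 also differed between the experiments, a difference set out here without a test. In the BAZ1B experiment each library held 2311 to 8217 reads of it. The H2A.X experiment held 1 read in each WT library at D0 and 4 and 1 reads in the WT libraries at D6. Its KO libraries held 0, 120 and 1 reads at D0 and 4, 322 and 10 reads at D6, in the order of the replicates. Replicate 2 of H2A.X KO thus carried CDK6 reads at both days, at 5.86 and 17.4 CPM, and the other 8 libraries held at most 10 reads each. With 0 of 18467578 reads in KO replicate 1 at D0, counting error alone allows a level of up to 0.162 CPM before TMM scaling. Since the gene passed the filter on low counts through 1 replicate, tests of it in the H2A.X experiment are not read here.

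The annotation places CDK6 on chromosome 7, from 92604921 to 92836573 on the minus strand (GRCh38), with a longest transcript of 11663 bases. There were 13 other genes that start within 1000 kb and reached 1 CPM in some library, and all 13 had reads in both experiments. The ranges of 12 of them overlapped between the experiments, KRIT1 being the exception (14.8 to 18.8 against 11.97 to 14.2 CPM). FAM133B, which starts 246 kb away on the side of the CDK6 gene body, ranged from 7.22 to 17.4 CPM in the H2A.X experiment, against 12.03 to 15.3 in the other. SAMD9, 281 kb away on the other side, ranged from 0.917 to 15.2 and from 4.76 to 19.2 CPM. The study's labels give the same cell line for all libraries, and the cause was not tested.

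**Figure D4:**
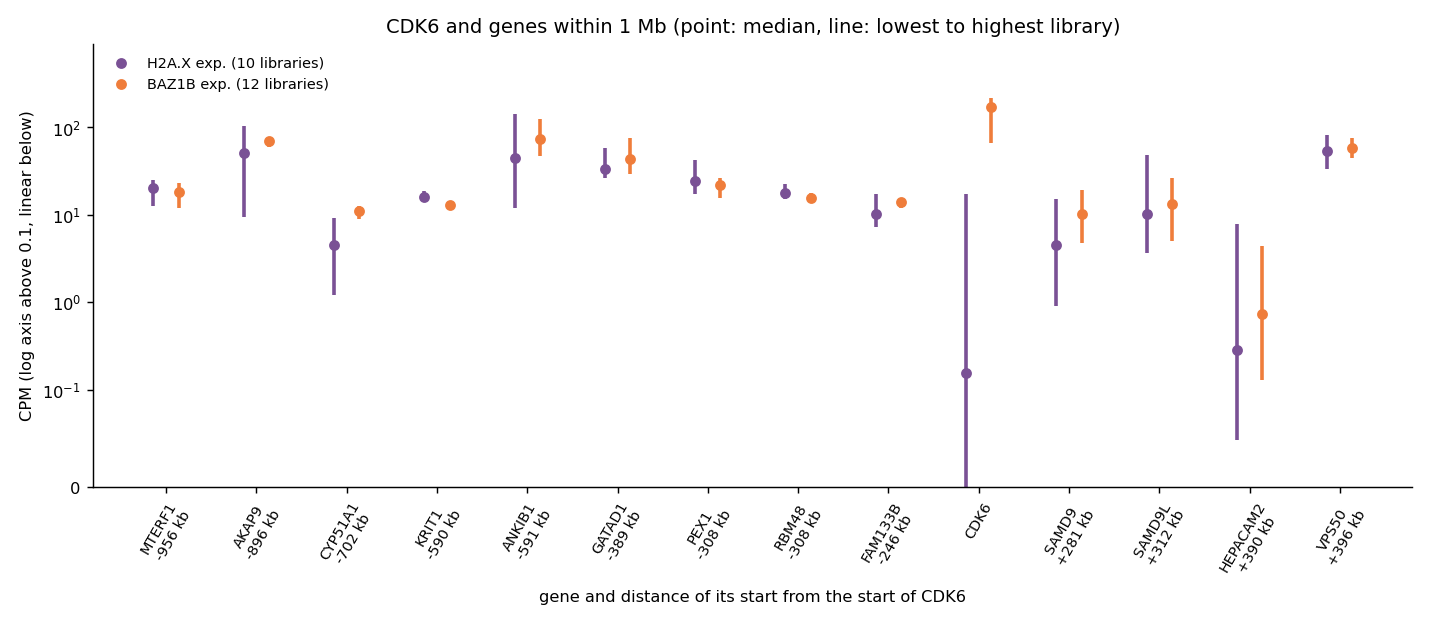
CPM (log axis above 0.1, linear below) of CDK6 and of 13 genes that start within 1000 kb of it, ordered by distance, as the median (point) and the lowest to highest library (line) in the H2A.X (10 libraries) and BAZ1B (12 libraries) experiments. The CDK6 ranges do not overlap, at 0 to 17.4 and 65.8 to 216 CPM, whereas those of 12 of the 13 neighbours do. The ranges span both genotypes and both days, and their overlap does not show that levels were alike.

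The last comparison asked what loss of H2A.X did. At D0, 5 of the 10 genes were called lower in H2A.X KO and none higher, where 18.4% of genes were called higher and 16.7% lower. CCND2 stood at 49.9, 55.9 and 48.7 CPM in the 3 KO libraries and 127 and 162 in the 2 WT libraries (log2 fold change of -1.49, SE 0.158, adjusted p = 0.00122). CCND3 stood at 99.0, 121 and 103 CPM in KO and 262 and 286 in WT (log2 fold change of -1.35, SE 0.336, adjusted p = 0.0145), and CCNE1 at 28.6, 40.5 and 36.3 CPM in KO and 65.0 and 82.4 in WT (log2 fold change of -1.07, SE 0.231, adjusted p = 0.00976). CDKN2C was lower as well, at 60.3, 60.7 and 69.7 against 90.9 and 116 CPM (log2 fold change of -0.70, SE 0.214, adjusted p = 0.0294), and so was CDK4, at 299, 314 and 310.2 against 374 and 444 (log2 fold change of -0.41, SE 0.137, adjusted p = 0.0407). In all 5 the KO libraries lay below both WT libraries, but separation does not set them apart. Of the 10 genes, 7 were lower in KO without overlap and 2 higher. CDK2 and CDKN1C were separate and lower, CCNE2 and CDKN1B separate and higher, and none of these was called. The share of all genes without overlap was not counted.

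The 5 calls did not all hold after a joint correction for transcript length and GC content. Across 12017 genes with a known length the KO to WT fold change rose with transcript length at D0 (Spearman's rho 0.500) and at D6 (0.550), across genes that are not independent replicates, while in the BAZ1B experiment it did not (-0.027 and 0.044). It fell with GC content in the H2A.X experiment (-0.243 at D0 and -0.355 at D6), and the correction does not tell length and GC content apart. When each library was corrected for length and GC content, 1 of the 5 calls remained, that of CCND2 (log2 fold change -2.0, adjusted p = 0.000753). CCND3 moved to -0.97 (adjusted p = 0.0693), CCNE1 to -0.59 (0.0664) and CDKN2C to -0.45 (0.149). CDK4 turned to 0.10 (0.546), so a direction cannot be given for it. Without WT replicate 2 at D0 it was again CCND2 alone that was called. At D0 the word Redo marks all KO and no WT column, so it cannot be told apart from the genotype. The summed erythroid markers were 11982 to 15920 CPM in KO and 23464 to 31918 in WT at D0, with 8 of 10 called lower, and those of mast cells and eosinophils 209 to 419 in KO and 104 to 140 in WT. The part of these markers in the differences was not tested.

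At D6 the H2A.X KO libraries differed from WT in 3 genes, where 22.2% of genes were called higher and 20.9% lower. CCNE2 was higher, at 131, 219 and 81.5 CPM in KO and 38.9 and 34.0 in WT, without overlap (log2 fold change of 1.98, SE 0.356, adjusted p = 0.00420). CCND2 was lower, at 164, 131 and 165 against 313 and 308 CPM (log2 fold change of -1.02, SE 0.158, adjusted p = 0.00354). CDK4 was lower too, at 289.8, 253 and 300.3 against 401 and 412 CPM (log2 fold change of -0.53, SE 0.137, adjusted p = 0.0121), but moved to 0.017 (adjusted p = 0.923) with the length and GC correction. Under that correction CCNE2 (1.76, adjusted p = 0.00986) and CCND2 (-1.62, 0.00302) kept their calls, and CDK2 gained one (0.59, 0.0128). CDK2 held 99.7, 107 and 98.5 CPM in KO and 83.0 and 82.1 in WT. Without WT replicate 2 at D6 none of the 3 calls was made, with an adjusted p of 0.0545 for CCND2, 0.0639 for CCNE2 and 0.106 for CDK4. CCND3, CCNE1 and CDKN2C, lower at D0, were not called at D6, and their KO and WT libraries overlapped. Erythroid markers summed to 42653 to 71406 CPM in KO and 36698 to 62039 in WT at D6, with 2 of the 10 called higher and 1 lower. Those of mast cells and eosinophils summed to 3.08 to 13.5 in KO and 145 to 232 in WT. The part of these markers in these differences was not tested.

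**Figure D5:**
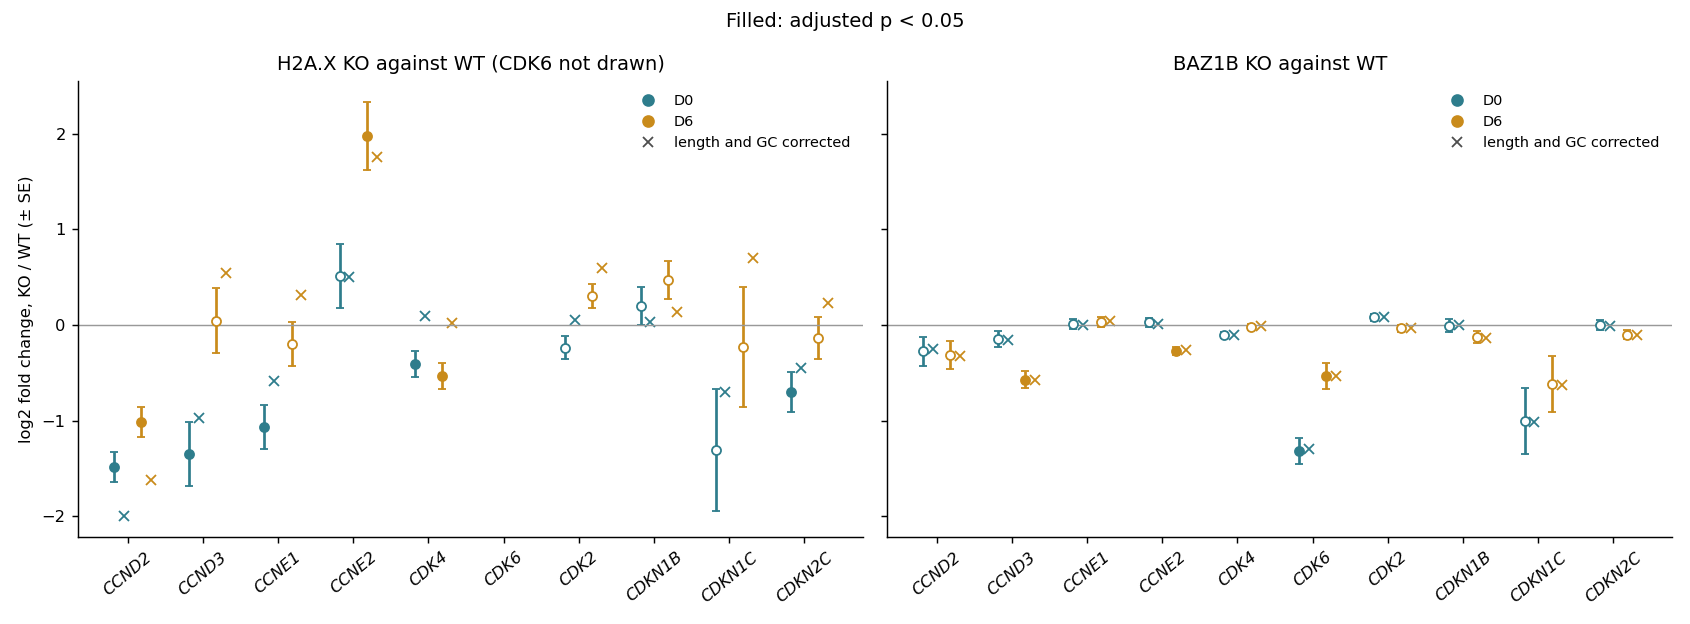
Log2 fold change of KO over WT at D0 and D6 (bars SE) for the G1 genes in the H2A.X (left) and BAZ1B (right) experiments; filled symbols have an adjusted p below 0.05, and crosses give the value after correction for transcript length and GC content. On the left the crosses move away from the circles, for CDK4 at D0 from -0.41 to 0.10, and on the right they do not; CDK6 is not drawn on the left.

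Among the pocket proteins and E2F factors, RBL1 (log2 fold change of 0.84, SE 0.207, adjusted p = 0.0139) and RBL2 (log2 fold change of 1.08, SE 0.276, adjusted p = 0.0159) and E2F3 (log2 fold change of 0.86, SE 0.194, adjusted p = 0.0111) were higher in H2A.X KO at D0, and E2F1 (log2 fold change of -0.94, SE 0.135, adjusted p = 0.00393) and E2F2 (log2 fold change of -1.20, SE 0.258, adjusted p = 0.00968) were lower. RB1 and E2F4 were not called (0.0543 and 0.0508, adjusted p), nor were CDKN1A and CDKN2D. The inhibitor CDKN2A was lower at D0 (log2 fold change of -0.63, SE 0.197, adjusted p = 0.0319) and at D6 (log2 fold change of -1.44, SE 0.196, adjusted p = 0.00308). At D6, RB1 was higher (log2 fold change of 1.61, SE 0.329, adjusted p = 0.00551), as were RBL1 (1.38), RBL2 (1.5), E2F2 (0.91) and E2F3 (0.59), and E2F1 was lower (-0.61). Over the 47 network genes, 6 were higher and 13 lower at D0, which became 1 and 9 with the length and GC correction, and 15 were higher and 11 lower at D6, which became 10 and 7. At most 1 of RBL1, RBL2 and E2F3 thus kept its higher call at D0 with the correction. The corrected values of single network genes are not given here. Of all genes, 18.4% were higher and 16.7% lower at D0 and 22.2% and 20.9% at D6 without the correction, and the shares with it are not given here. The fall in network genes called is therefore not read as particular to them. Without WT replicate 2 of the compared day, 0 were higher and 1 lower at either day, so that none of the higher calls named here was made.

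The H2A.X KO effect was not shown to differ between the days for any of the 10 genes by edgeR, where 0.302% of genes were called higher and 1.04% lower. CCND3, CCNE1, CCNE2 and CDK2 had an unadjusted p below 0.05, with differences of 1.39, 0.87, 1.47 and 0.54 on the log2 scale and adjusted p values of 0.174 to 0.244. DESeq2 called CDK2 alone (adjusted p = 0.0188). E2F2 was called among the network genes (2.11, SE 0.373, adjusted p = 0.0273), being lower in KO at D0 and higher at D6. No network gene was called when any 1 of 7 of the 10 libraries was left out (all 5 of D0 and both WT libraries of D6), or without both libraries of KO replicate 2.

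A stricter rule was also applied, an adjusted p under 0.001 with a log2 fold change beyond 1.5 in size. Between the days it called CCND3, CCNE1 and 1 more gene in each of 3 comparisons: CDKN1C in BAZ1B WT and in BAZ1B KO, and CCND2 in H2A.X KO. It called 11.7% of all genes in BAZ1B WT, 11.5% in BAZ1B KO, 3.22% in H2A.X KO and 0% in H2A.X WT. Between KO and WT it called none of the 10, against 0.166% and 0.151% of all genes for H2A.X at D0 and D6 and 0.36% and 0.749% for BAZ1B. For the difference of the KO effects between the days it called 0% of all genes for H2A.X and 0.0288% for BAZ1B.

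For the gene of each class with the largest day effect in BAZ1B WT, the genes with the most similar pattern were sought over all 22 libraries, by the root mean square difference of log2 CPM after centring within each experiment. For CCNE1 these were SIPA1 (0.181), MPC2 (0.201) and SMIM5 (0.225), where the median over 9169 genes was 1.12. Among the nearest to CDK2 were NFYC (0.0722) and NAP1L4 (0.0791), with a median of 0.394. CDKN1C, at few reads, had no close match, with SLC25A42 (0.437), UROS (0.448) and CD58 (0.449) the nearest and a median of 0.965. All points share their libraries and depths, and a gene whose level changes little, as CDK2, has many near neighbours.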

How the data were processed

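RNA-Seq was analysed from raw counts, which the authors deposited as 1 table per experiment. Per the submitters' processing notes, reads were aligned with STAR 2.7.0f to hg38 and counted per gene with featureCounts (Subread 1.6.4); DESeq2 1.22.1 was also named. Trimming preceded alignment.

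Counts were fitted with edgeR 4.0.16 (R 4.3.3, limma 3.58.1) in 1 model per experiment, with a coefficient for each genotype and day, the filterByExpr filter (minimum count 10, minimum total 15) and TMM scaling. After filtering, 13236 (H2A.X) and 13879 (BAZ1B) genes were tested, all 10 G1 genes among them. Quasi-likelihood tests were adjusted by Benjamini-Hochberg over all genes tested, and a gene was called at an adjusted p below 0.05. The SE was derived from the log2 fold change and its F statistic. Fold changes of low genes depend on edgeR's prior count. The test was checked on simulated counts.

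The 10 genes, the network lists, the markers and the tests were chosen with earlier results of these data known. All 10 genes were named. From each network list, up to the 3 largest called changes per direction between the days in BAZ1B WT were named. The pocket proteins, E2F1 to E2F4, CDKN1A and CDKN2D were named in any case, and CDKN2A and CDKN2B were named outside this rule. Alternatives were DESeq2 1.42.0, upper-quartile scaling, globin genes left out, no filter, a replicate block, an offset for transcript length and GC content (mgcv 1.9.3; lengths for 90.8% and 89.4% of genes), the compared day alone, each library left out in turn, and a stricter rule (adjusted p below 0.001 and log2 fold change beyond 1.5). The study set its limit of 0.001 on a p-value. Leaving out both libraries of H2A.X KO replicate 2 or 3 was added after seeing the data.

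Replicate numbers came from the labels. Same-numbered D0 and D6 libraries deviated together in H2A.X KO (correlations across genes of 0.602, 0.429 and 0.302) and in BAZ1B KO (0.567, 0.634 and 0.136). For WT the correlations were 0.483 in the H2A.X experiment and 0.203, 0.00832 and 0.206 in the BAZ1B experiment. The main fit did not pair libraries. Only the replicate block paired the days, in WT and in KO. Promoter windows and motifs came from RefSeq (GRCh38.p14), and gene positions and lengths from the human annotation. One gene that the rule on similar patterns would name is not reported here.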

Additional observations from a re-analysis of the deposited data

Results flagged for a closer look

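The effect of BAZ1B loss on CCNE2 differed between the days by a test of the difference itself. The log2 fold change of KO over WT moved by -0.30 from D0 to D6 (SE 0.0629, adjusted p = 0.0273 by edgeR's quasi-likelihood test). At D0 the KO libraries held 43.9, 44.1 and 41.9 CPM and the WT libraries 42.1, 43.0 and 42.3, and at D6 they held 67.9, 75.3 and 74.8 and 88.0, 89.1 and 86.6. The call was lost when any 1 of the 6 WT libraries was left out.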

How the results depend on the processing

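Under the stricter rule (adjusted p under 0.001, log2 fold change beyond 1.5) the calls among the 10 genes fell from 5 to 0 (H2A.X KO against WT at D0), from 3 to 0 (D6), from 2 to 0 (D6 against D0 in H2A.X WT), from 7 to 3 (H2A.X KO), from 1 to 0 and 3 to 0 (BAZ1B KO against WT at D0 and D6), from 9 to 3 in both BAZ1B genotypes between the days, and from 1 to 0 for the BAZ1B difference of effects. The length and GC correction left 1 of 5 calls for H2A.X at D0 and turned CDK4 to 0.10 at D0 and 0.017 at D6. Without a filter, 4 calls were made between the days in H2A.X WT, 3 for the H2A.X and 3 for the BAZ1B difference of effects, and 3 for BAZ1B at D0. DESeq2 made 1 and 3 calls for the H2A.X and BAZ1B differences. With the replicate block, 5 calls were made for H2A.X at D6, 1 for the H2A.X difference and 2 for the BAZ1B difference. The numbers were not shown to pair WT with KO libraries. Leaving out 1 library gave 1 to 5 calls for H2A.X at D0 (1 without WT replicate 2), 0 to 5 at D6 (0 without WT replicate 2, 5 without KO replicate 3), 0 to 3 between the days in H2A.X WT, 0 to 2 for the H2A.X difference (2 without KO replicate 3 at D6), 1 to 2 and 2 to 5 for BAZ1B at D0 and D6 (2 and 5 without KO replicate 1 at D0), and 0 to 2 for the BAZ1B difference. CDK6 in the H2A.X experiment ranged from -1.17 to 5.43 at D0 and from -2.36 to 7.61 between the days in KO, the lowest without KO replicate 2, on which both values rest. Upper-quartile scaling moved the median of all genes to -0.11 for H2A.X at D6. The share of all genes called under each alternative is not given beside these counts. Apart from the values given here and in the report, the cause of a change was not tested. There were 38 gene and comparison pairs with no call in the main fit or under an alternative other than leaving out libraries. Of these 38, 16 changed sign under some alternative, and the text gives no fold change for any of the 38.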
